A study of Homo sapiens with 6 samples.

Results

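The ETS genes described here are ELF1, ELF2, ELF3, ELF4, EHF, ETS1, ETS2, ETV4, ETV5 and ELK3, 10 of the 17860 genes in a table of transcript levels from HCC1806/HM3 cells with and without knockdown of MSLN. They were chosen by name, as ELF1 and its relatives, because ELF1 was examined in the study as a factor acting on the MSLN gene. HCC1806 is a human triple-negative breast cancer (TNBC) line, labelled as squamous cell carcinoma of the breast, and HM3 is its derivative from liver metastases after serial passage in mice. Both groups were HM3 cells that had been infected with a neomycin-resistance lentivirus and selected with G418, 3 samples with a control shRNA (shNC) and 3 with an shRNA against MSLN (shMSLN). MSLN encodes mesothelin, a cell surface protein anchored by a lipid tail. The comparison asks how transcript levels differ when MSLN is kept low in these liver-metastatic cells. The shRNA was expressed stably, so the samples show a lasting state and not the first hours after loss of MSLN. The study lists a pair of human MSLN shRNA targets, and the one carried by the sequenced cells is not named in the sources used here. No source says that the samples of a group came from separate cultures, so p-values measure the spread between these samples, which may be technical.

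ETS factors share a DNA-binding domain, the ETS domain, a winged helix-turn-helix that reads sites built around the letters GGAA. Most tissues express many family members at once, so a GGAA site can be bound by several of them, and the balance between members matters for which genes are switched on. Epithelial cells are known for the ESE class (ELF3, EHF, ELF5), the PEA3 class (ETV1, ETV4, ETV5) and ETS2 are linked to growth factor signaling through RAS and ERK, and ELK1, ELK3 and ELK4 are ternary complex factors that join serum response factor (SRF) at early response genes.

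The start-site sequences of ELF1 and of the 3 members that fell are printed here, since the ETS family is defined by the letters it reads and these windows let its core be seen in its own genes. They come from RefSeq (GRCh38.p14), each running from 250 bases before a start site to 50 bases after it, 5′ to 3′ on the strand of the gene, and the capitals mark every GGAA, or TTCC where the core lies on the other strand.
ELF1, chr13:41061337-41061636, reverse strand: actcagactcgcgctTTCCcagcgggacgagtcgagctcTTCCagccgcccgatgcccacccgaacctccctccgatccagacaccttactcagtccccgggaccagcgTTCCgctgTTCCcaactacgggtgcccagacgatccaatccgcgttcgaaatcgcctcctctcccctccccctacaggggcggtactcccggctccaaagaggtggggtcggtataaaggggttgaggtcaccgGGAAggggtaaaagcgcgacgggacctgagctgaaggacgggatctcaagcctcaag
ELF3, chr1:202010337-202010636, forward strand: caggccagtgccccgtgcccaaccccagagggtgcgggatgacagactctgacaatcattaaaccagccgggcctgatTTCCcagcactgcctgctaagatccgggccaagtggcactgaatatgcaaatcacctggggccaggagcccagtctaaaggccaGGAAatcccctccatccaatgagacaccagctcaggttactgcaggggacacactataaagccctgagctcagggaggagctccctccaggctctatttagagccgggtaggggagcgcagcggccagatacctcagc
EHF, chr11:34624007-34624306, forward strand: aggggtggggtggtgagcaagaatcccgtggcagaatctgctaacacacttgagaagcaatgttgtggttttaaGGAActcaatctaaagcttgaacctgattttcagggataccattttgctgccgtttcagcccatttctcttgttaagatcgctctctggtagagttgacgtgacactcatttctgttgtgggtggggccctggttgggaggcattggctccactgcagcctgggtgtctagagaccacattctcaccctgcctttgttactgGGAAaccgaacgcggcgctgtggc
ELK3, chr12:96194125-96194424, forward strand: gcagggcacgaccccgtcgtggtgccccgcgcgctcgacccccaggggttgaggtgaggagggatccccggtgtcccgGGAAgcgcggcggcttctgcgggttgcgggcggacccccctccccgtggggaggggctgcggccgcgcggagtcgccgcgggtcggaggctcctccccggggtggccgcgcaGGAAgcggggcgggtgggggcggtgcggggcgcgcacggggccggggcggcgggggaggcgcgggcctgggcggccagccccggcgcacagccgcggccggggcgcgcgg
The core occurred 5 times in the ELF1 window, 2 times in that of ELF3, 2 times in that of EHF and 2 times in that of ELK3. Over all 35116 windows of this length the median was 3, and 95.5% held at least 1 core on either strand, so the core alone sets none of these genes apart. Of the 10 members, 7 had a window. Where a gene had several, the one with its start site at the gene's 5′ boundary was shown or, failing that, the first listed. The EHF window was a first-listed one, with its start site inside the gene. In the counts that follow, a gene has a motif if any of its 1 to 3 windows holds it, while the shares are per window. The gene counts and the shares are thus not on the same scale. The longer form AGGAAG was found on either strand in at least 1 window of ELF1, ELF2, ELF4, ETS2 and ELK3, against 33.6% of all windows. Of the windows printed above, only that of ELK3 held it. CCGGAA was found in the windows of 0 members, against 17.2%. Both of these longer forms contain the core. The ELF3 window held a match to the NF-kB consensus, read on both strands, at -88 to -79 from the start site, where it shares the 4 letters of a GGAA core. A window of ETS2, a member that was not called, held one too, at 27 to 36 after its start site. Such a match was present in 11.3% of all windows. The AP-1 letters TGANTCA were found in a window of ELF4, against 7.71% of all windows. These matches describe letters only, and no binding was measured.

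By RefSeq coordinates (GRCh38.p14), ELF1 lies at chr13:40931919-41061386, ELF2 at chr4:139057220-139177915, ELF3 at chr1:202010587-202017183, ELF4 at chrX:130063955-130111858 and EHF at chr11:34621093-34663288. ETS1 lies at chr11:128458765-128587558, ETS2 at chr21:38805183-38824955, ETV4 at chr17:43527846-43546340, ETV5 at chr3:186046314-186109089 and ELK3 at chr12:96194375-96269824. EHF and ETS1 share chromosome 11, and the other 8 members lie on 8 different chromosomes. MSLN lies at chr16:760734-768865.

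Each sample held between 17507837 and 18512135 estimated reads, so depth differed little between groups. MSLN was at 231, 226 and 227 CPM (counts scaled to library size, with TMM as a correction for library composition) in the shNC samples and at 37.1, 36.2 and 35.4 CPM in the shMSLN samples. The knockdown left 15.9% of the control level (log2 fold change -2.65 ± 0.042 SE, adjusted p = 4.0e-15). The shMSLN columns were not all alike in form. Among genes with over 100 reads, 47.8% and 47.9% of the values in shMSLN replicates 2 and 3 were whole numbers, against 3.35% to 7.12% in the other samples, and shMSLN replicate 1 lacked a value for 1103 genes against 695 in each of the other two. Results without shMSLN replicate 1, and with it as the only shMSLN sample, are therefore given for the members below. Epithelial and basal markers were abundant, with a summed TPM of 4570 to 5000 in shNC and 4180 to 4310 in shMSLN over 10 genes. KRT5 alone was at 2103 to 2346 TPM in shNC and 1741 to 1781 TPM in shMSLN, so this sum hides single genes. CDH1, KRT17 and EGFR were called higher, and KRT5, KRT6A, KRT18 and TP63 lower. These are 3 and 4 of the 10, against 16.6% and 18% of all tested genes. Of 5 endothelial markers, 4 were below 1 TPM in every sample, as were 3 of 6 leukocyte, 3 of 6 fibroblast and 3 of 5 mesothelial markers. The fibroblast sum was 60.5 to 63.9 TPM in shNC and 118 to 121 TPM in shMSLN, with LUM at 47.2 to 51.0 TPM in shNC and 104 to 107 TPM in shMSLN, COL1A1 at 11.2 to 12.1 TPM in every sample and COL1A2, COL3A1 and DCN below 1 TPM. LUM and DCN were called higher, and the part of these genes in the results below was not tested. The leukocyte sum overlapped between groups (36.8 to 41.5 against 36.2 to 39.6 TPM). The mesothelial sum was 419 to 437 TPM in shNC and 292 to 316 TPM in shMSLN, nearly all from MSLN itself and UPK3B. UPK3B was at 191 to 208 TPM in shNC and 254 to 277 TPM in shMSLN and was called higher (adjusted p = 1.6e-05).

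All 10 members were measured in every sample and passed the filter on low counts. EHF, ELF3 and ELK3 fell in shMSLN cells to between 72.3% and 74.7% of control, ELF1 and ELF4 rose slightly, and ELF2, ETS1, ETS2, ETV4 and ETV5 did not pass the test. A gene was called where edgeR's adjusted p was below 0.05. Thus 5 of 10 members were called, 2 higher and 3 lower, while 34.6% of all 14552 tested genes were called, 16.6% higher and 18% lower. The median log2 fold change was 0.05 over the 10 members and 0.00 over all tested genes. Of all called genes, 47.9% were higher on counts, and 61.0% on the authors' TPM values, but the sign of each member's change was the same on both scales. Fewer cells of a kind and less RNA per cell cannot be told apart in bulk samples.

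**Figure D1:**
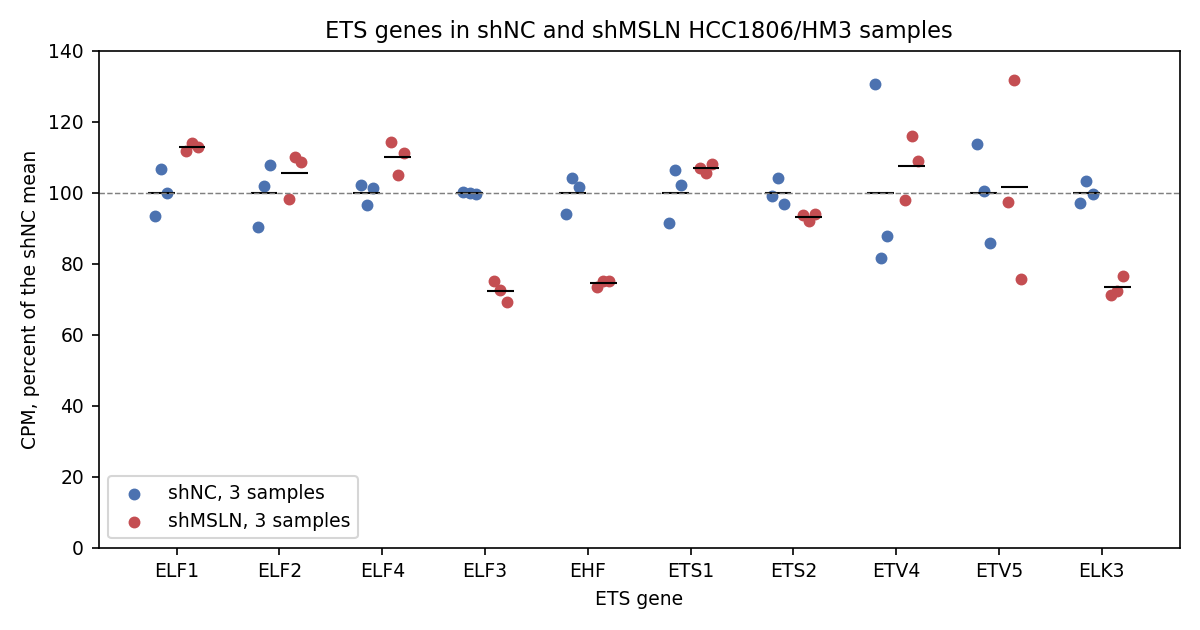
Level of each of the 10 ETS genes in each sample, as CPM in percent of the mean of the 3 shNC samples (dashed line at 100), with shNC in blue, shMSLN in red and a black bar at each group mean. The red points of ELF3, EHF and ELK3 lie far below all blue points, those of ELF1 and ELF4 lie just above them, and ETV4 and ETV5 scatter widely in both groups.

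ELF1, ELF2 and ELF4 form one subclass, factors known from lymphoid cells and expressed in most tissues. ELF1 was at 115, 131 and 123 CPM in shNC and at 138, 140 and 139 CPM in shMSLN. All 3 shMSLN samples lay above all 3 shNC samples, and they lay closer together (SD 1.33 against 8.06 CPM). ELF1 rose to 113% of control (log2 fold change 0.18 ± 0.046 SE, adjusted p = 0.0090), so in these cells with little MSLN its mRNA was not lower. The size of the change depended on the controls. It was 0.13 (adjusted p = 0.013) without shNC replicate 1, the lowest, and 0.22 (adjusted p = 7.5e-04) without shNC replicate 2, the highest. Without shMSLN replicate 1 the change was 0.18 (adjusted p = 0.026), and with it as the only shMSLN sample 0.16 (adjusted p = 0.21).

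ELF4, first described as a myeloid ELF1-like factor, was at 82.8, 78.3 and 82.1 CPM in shNC and at 92.7, 85.1 and 90.2 CPM in shMSLN. The groups did not overlap, though the highest shNC and the lowest shMSLN samples were near each other. ELF4 rose to 110% of control (log2 fold change 0.14 ± 0.046 SE, adjusted p = 0.029). This call was lost with shMSLN replicate 1 as the only shMSLN sample (0.20, adjusted p = 0.11), without shMSLN replicate 1 (0.11, adjusted p = 0.12), without shMSLN replicate 3 (0.14, adjusted p = 0.093), without shNC replicate 2 (0.12, adjusted p = 0.078), without shNC replicate 3 (0.15, adjusted p = 0.069) and in DESeq2 (0.14, adjusted p = 0.058).

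ELF2, also called NERF, was at 46.1, 52.2 and 55.1 CPM in shNC and at 50.2, 56.3 and 55.6 CPM in shMSLN. The groups overlapped, and the 95% interval of its log2 difference ran from -0.06 to 0.22 (adjusted p = 0.38). The difference was 0.13 (adjusted p = 0.20) without shMSLN replicate 1 and -0.02 (adjusted p = 0.91) with it as the only shMSLN sample.

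ELF3 and EHF belong to the ESE class, named for epithelium-specific expression, and act in epithelial differentiation and in the response to inflammatory signals. EHF was at 1096, 1214 and 1183 CPM in shNC and at 857, 875 and 876 CPM in shMSLN. ELF3 was at 380, 380 and 378 CPM in shNC and at 285, 275 and 263 CPM in shMSLN. In both genes every shMSLN sample was lower than every shNC sample, and the gap was several times the SD of either group. EHF fell to 74.7% of control (log2 fold change -0.42 ± 0.038 SE, adjusted p = 1.1e-06). ELF3 fell to 72.3% of control (log2 fold change -0.47 ± 0.037 SE, adjusted p = 2.4e-07). Both calls held in every alternative fit, with log2 fold changes from -0.46 to -0.39 for EHF and from -0.50 to -0.41 for ELF3. The ELF3 change was -0.50 without shMSLN replicate 1 and -0.41 with it as the only shMSLN sample, and the EHF change -0.41 and -0.44. ELF5, the third gene of the class and a factor of the mammary alveolar lineage, went the other way. It was at 4.65, 4.71 and 4.73 CPM in shNC and at 6.93, 6.90 and 8.70 CPM in shMSLN, a rise to 160% of control (log2 fold change 0.67 ± 0.13 SE, adjusted p = 0.0012). Per length it stayed far below EHF and ELF3, at 4.50 to 9.26 TPM over the 6 samples. The ELF5 change was 0.73 without shMSLN replicate 1 and 0.56 with that replicate as the only shMSLN sample.

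ETS1 and ETS2 are the founding pair of the family, and both can be phosphorylated by ERK at a residue near the pointed domain. ETS1 was at 242, 282 and 270 CPM in shNC and at 283, 279 and 286 CPM in shMSLN. The groups overlapped, with shNC replicate 1 lower than the other 5 samples. The log2 difference of 0.10 had a 95% interval from -0.01 to 0.20 (adjusted p = 0.14), so it did not pass the test. It was 0.03 (adjusted p = 0.46) without shNC replicate 1, the lowest control, and 0.14 (adjusted p = 0.018) without shNC replicate 2, the highest. Without shMSLN replicate 1 it was 0.09 (adjusted p = 0.24), and with it as the only shMSLN sample 0.10 (adjusted p = 0.47).

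ETS2 was at 139, 145 and 135 CPM in shNC and at 131, 129 and 131 CPM in shMSLN. No shMSLN sample reached the lowest shNC sample, but the difference was small (log2 fold change -0.10 ± 0.040 SE, 95% interval -0.19 to -0.01) and did not pass the test (adjusted p = 0.067). Leaving out shNC replicate 1 brought it past the threshold (-0.11, adjusted p = 0.037). The difference was -0.10 (adjusted p = 0.12) without shMSLN replicate 1 and -0.09 (adjusted p = 0.45) with it as the only shMSLN sample.

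ETV4 and ETV5 belong to the PEA3 class, whose transcription is induced by ERK signaling in many epithelia. Both were scarce here. ETV4 was at 3.72, 2.33 and 2.50 CPM in shNC and at 2.80, 3.31 and 3.11 CPM in shMSLN. ETV5 was at 1.70, 1.50 and 1.28 CPM in shNC and at 1.45, 1.96 and 1.13 CPM in shMSLN. The groups overlapped in both genes. With a mean of 53.5 reads per sample for ETV4 and 27.1 for ETV5, the 95% intervals of the log2 difference were wide, from -0.32 to 0.53 and from -0.53 to 0.57, so a change like that of EHF or ELF3 was not detectable in ETV5 at this depth. Without shMSLN replicate 1 the ETV4 and ETV5 differences were 0.17 and 0.05, and with it as the only shMSLN sample -0.03 and -0.04, none past the threshold. ETV1, the third gene of the class, was at 0.60, 0.67 and 0.61 CPM in shNC and at 1.24, 1.23 and 1.02 CPM in shMSLN, with a log2 fold change of 0.89 ± 0.29 SE (adjusted p = 0.026) that rests on a mean of 16.2 reads per sample. The ETV1 call was lost in DESeq2 (adjusted p = 0.14) and in limma on log2(TPM + 1) (adjusted p = 0.057). It was also lost without any one of shNC replicates 1, 2 and 3 and shMSLN replicates 1 and 2 (adjusted p from 0.050 to 0.084).

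ELK3, also called NET, is a ternary complex factor that represses its targets until ERK or p38 signaling turns it into an activator. It was at 69.0, 73.3 and 70.7 CPM in shNC and at 50.5, 51.3 and 54.3 CPM in shMSLN. The groups were well apart, and ELK3 fell to 73.3% of control (log2 fold change -0.45 ± 0.048 SE, adjusted p = 5.7e-06). The change was -0.43 without shMSLN replicate 1, -0.49 with it as the only shMSLN sample, and it was called in every alternative fit. ELK4, also called SAP-1, was at 172, 198 and 200 CPM in shNC and at 153, 157 and 157 CPM in shMSLN, and fell as well, to 82.0% of control (log2 fold change -0.29 ± 0.051 SE, adjusted p = 5.4e-04). ELK1 was at 38.4, 37.9 and 36.8 CPM against 36.2, 32.5 and 35.3 CPM, with no overlap between groups but a log2 difference of -0.12 that did not pass the test (95% interval -0.24 to 0.00, adjusted p = 0.12).

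Of the other 18 family genes, 16 were listed in the table and 11 passed the filter. Of these 11, 8 were called, 3 higher and 5 lower, against 34.6% of all tested genes. Their median log2 fold change was -0.12. ELF5, ETV1 and SPIB rose, and ELK4, ETV6, ETV7, FLI1 and GABPA fell. FLI1, a factor of blood and endothelial cells, was at 9.85, 9.37 and 10.4 CPM in shNC and at 4.89, 6.79 and 5.93 CPM in shMSLN. It fell to 59.5% of control (log2 fold change -0.75 ± 0.12 SE, adjusted p = 2.8e-04). SPIB, a factor of B cells and of some epithelia, was at 1.26, 1.33 and 1.61 CPM in shNC and at 1.88, 2.24 and 2.49 CPM in shMSLN (log2 fold change 0.65 ± 0.22 SE, adjusted p = 0.033), and its call was lost in DESeq2 (adjusted p = 0.13). It was also lost without shNC replicate 1 or 2 and without shMSLN replicate 2 or 3 (adjusted p from 0.075 to 0.13). The summed endothelial markers were at 2.62 to 3.17 TPM in shNC and 2.74 to 3.24 TPM in shMSLN, and those of leukocytes overlapped between groups as well. These sums hide single genes. VWF was called higher (log2 fold change 0.41, adjusted p = 0.027), while CDH5 was lower in every shMSLN sample but not called (-0.89, adjusted p = 0.050). CD68 alone, at 28.1 to 34.1 TPM, made up most of the leukocyte sum. Whether such cells have a part in the FLI1 change was not tested.

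GABPA, which binds DNA together with GABPB1 or GABPB2 at many housekeeping promoters, was at 67.9, 81.7 and 78.1 CPM in shNC and at 60.4, 62.0 and 65.1 CPM in shMSLN. It fell to 82.3% of control (log2 fold change -0.28 ± 0.062 SE, adjusted p = 0.0028). ETV6, a repressor with a pointed domain, fell to 83.6% (log2 fold change -0.26 ± 0.057 SE, adjusted p = 0.0029), and its close relative ETV7 to 81.9% (-0.29 ± 0.078 SE, adjusted p = 0.010), a call that DESeq2 did not make (adjusted p = 0.063). The repressors ERF (log2 fold change 0.13, adjusted p = 0.17) and ETV3 (-0.10, adjusted p = 0.18) did not pass the test. The remaining genes, ERG, ETV2, SPDEF, SPI1 and SPIC, averaged under 1 CPM in both groups and were not tested.

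**Figure D2:**
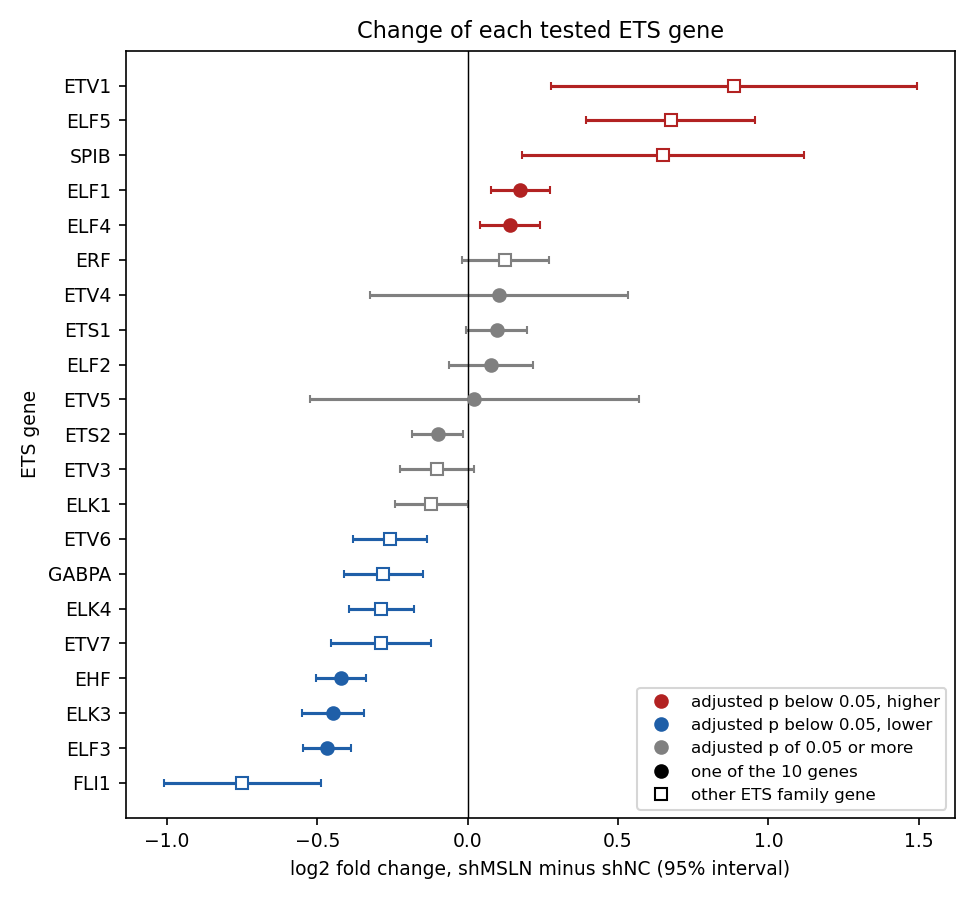
Log2 fold change (shMSLN minus shNC) with its 95% interval for the 21 ETS genes tested, ordered by size. Filled circles are the 10 genes described here, open squares the other family genes, red called higher, blue called lower and grey not called. ELF3, ELK3 and EHF sit together between -0.47 and -0.42, ELF1 and ELF4 lie just right of 0, and the scarce ETV1 and ETV5 have the widest intervals.

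Levels between genes can be compared only per length, for which the authors' TPM values were used. EHF was the most abundant member in shNC cells at 472 ± 34.4 TPM (SD, n = 3), above 98.5% of the 16573 genes with a value in every sample. ELF3 followed at 323 ± 13.7 TPM and ETS1 at 118 ± 11.5 TPM. ETS2 (80.6 ± 4.29 TPM) and ELF1 (71.9 ± 6.21 TPM) came next, and their ranges over samples overlapped. ELF4 (40.5 ± 0.361 TPM), ELK3 (39.7 ± 2.44 TPM) and ELF2 (37.3 ± 3.39 TPM) were not separated from each neighbor by more than their ranges. ETV4 was at 2.96 ± 0.739 TPM and ETV5 at 0.793 ± 0.112 TPM, above only 27.6% and 17.8% of genes. In shMSLN cells EHF stayed first at 360 ± 7.19 TPM and ELF3 second at 239 ± 11.1 TPM. There ELF1 (82.6 ± 1.18 TPM) stood above ETS2 (76.1 ± 0.822 TPM), and ELK3 (29.3 ± 1.36 TPM) stood below ELF2 (41.5 ± 2.58 TPM). In both of these pairs the order was the reverse of that in shNC, where ETS2 and ELF1, and ELK3 and ELF2, overlapped.

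**Figure D3:**
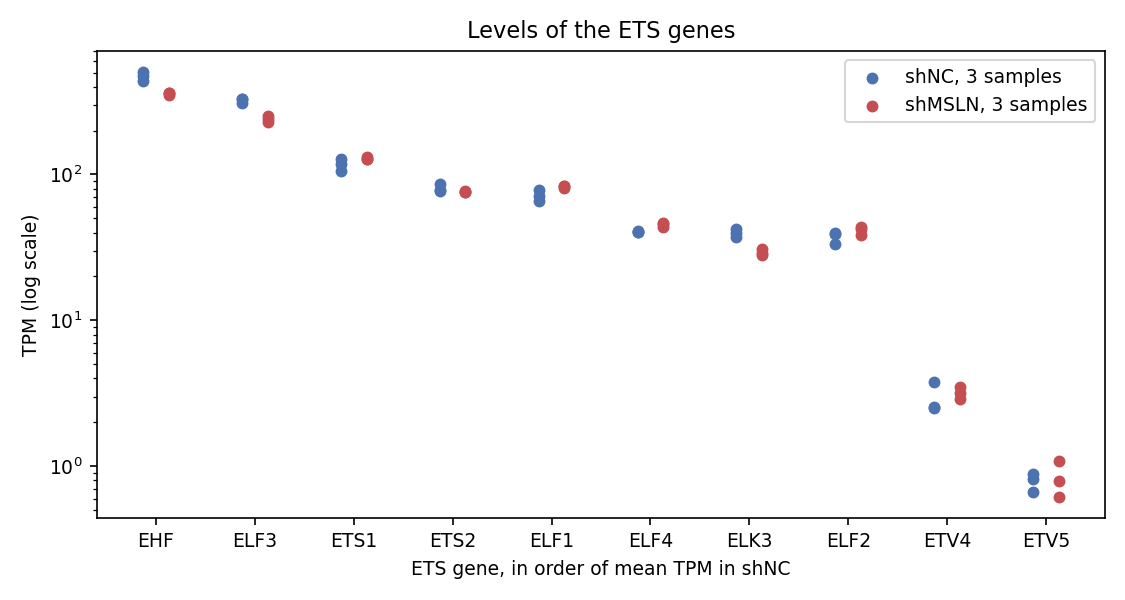
TPM of each of the 10 ETS genes in every sample on a log scale, ordered by mean TPM in shNC, with shNC in blue and shMSLN in red. Levels span from about 0.6 TPM for ETV5 to 504 TPM for EHF, and for ELF3, EHF and ELK3 the red points are below the blue ones.

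The summed TPM of the 26 listed ETS genes was 1394 ± 72.6 in shNC and 1196 ± 6.01 in shMSLN (SD, n = 3). EHF and ELF3 together made up 57.6%, 56.7% and 56.6% of this sum in shNC and 50.6%, 50.4% and 49.4% in shMSLN. No shMSLN sample came near the lowest shNC share. ELF1, ELF2 and ELF4 made up 10.7 ± 0.172% in shNC and 14.2 ± 0.138% in shMSLN, and ETS1 and ETS2 14.2 ± 0.327% and 17.2 ± 0.213%. Shares are tied to one another, so part of these rises follows from the fall of EHF and ELF3 in the same sum. In TPM itself, ELF1, ELF2 and ELF4 summed to 150 ± 8.98 and 169 ± 2.50, and ETS1 and ETS2 to 198 ± 14.8 and 205 ± 3.07. The 10 members held 85.1 ± 0.166% and 84.2 ± 0.304% of the family sum.

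**Figure D4:**
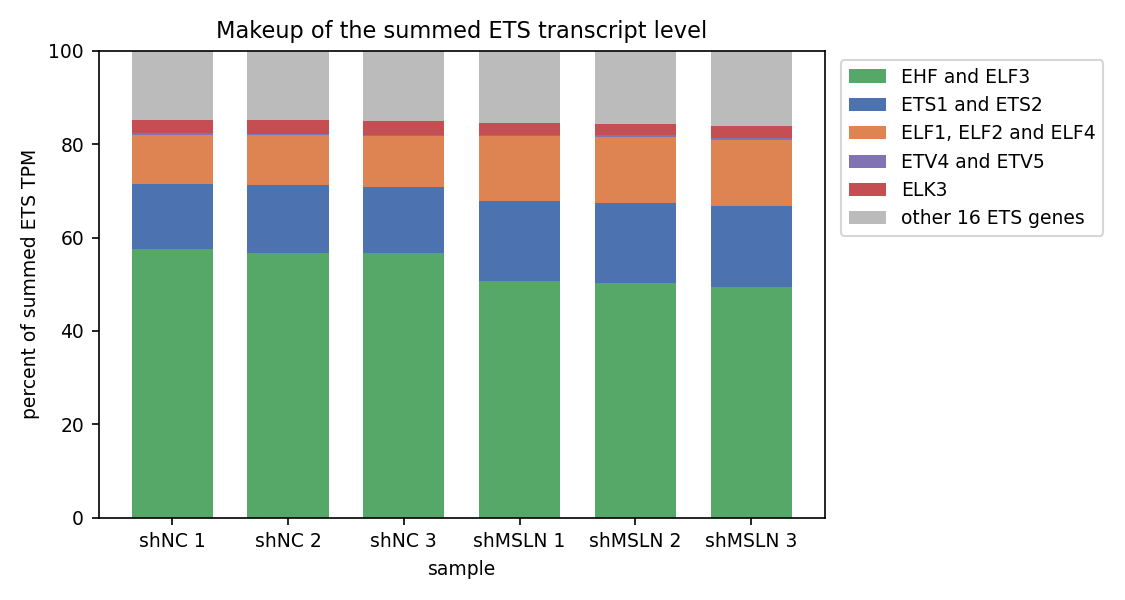
Share of the summed TPM of 26 ETS genes held by each subclass in every sample, as stacked bars that add up to 100%. The part held by EHF and ELF3 shrinks from about 57.0% in the shNC samples to about 50.1% in the shMSLN samples, and those of ELF1, ELF2 and ELF4 and of ETS1 and ETS2 widen.

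Of 16 genes that work with ETS factors or control them, 3 were called, against 34.6% of all tested genes. MAPK3 was higher and GABPB2 and RUNX1 were lower, and the median log2 fold change of the 16 was -0.04. MAPK3 encodes ERK1, a kinase of several ETS factors, and was at 52.8, 49.2 and 53.8 CPM in shNC and at 60.4, 60.8 and 59.8 CPM in shMSLN (log2 fold change 0.22 ± 0.049 SE, adjusted p = 0.0031). GABPB2, a partner of GABPA, was at 41.6, 46.2 and 44.7 CPM in shNC and at 35.3, 35.4 and 34.7 CPM in shMSLN (-0.33 ± 0.055 SE, adjusted p = 3.0e-04). RUNX1, which binds DNA cooperatively with ETS1, was at 76.7, 81.6 and 80.5 CPM against 67.6, 73.2 and 71.7 CPM (-0.17 ± 0.047 SE, adjusted p = 0.013). The groups did not overlap in any of the 3. The other 13, among them SRF, CIC and the coactivators CREBBP and EP300, did not pass the test.

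Of 8 genes whose transcripts serve as a readout of ERK signaling, 7 were tested, with a median log2 fold change of -0.39. Of these 7, 5 were called, all lower, while 34.6% of all tested genes were called, 18% lower. DUSP4, a phosphatase that switches off MAP kinases, was at 5.31, 4.93 and 4.17 CPM in shNC and at 1.94, 1.35 and 1.24 CPM in shMSLN (-1.66 ± 0.20 SE, adjusted p = 1.6e-05). DUSP6, an ERK phosphatase, fell to 76.4% of control (-0.39 ± 0.083 SE, adjusted p = 0.0023). Cyclin D1, CCND1, was at 431, 401 and 411 CPM in shNC and at 316, 319 and 315 CPM in shMSLN, or 76.4% of control (adjusted p = 1.4e-06). The ephrin receptors EPHA2 and EPHA4 fell to 72.9% and 85.5% (adjusted p = 5.3e-06 and 0.012). The other tested genes of the list, PHLDA1 (-0.07, adjusted p = 0.21) and SPRY2 (0.11, adjusted p = 0.69), did not pass the test, and SPRY4 was not tested. ETV4 and ETV5, which are commonly counted as ERK outputs too, did not pass the test.

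Among 10 genes known as targets of ELF3 or EHF elsewhere, 5 could be tested and 3 were called, all lower. Of all tested genes 34.6% were called, 18% lower. LCN2, an iron-scavenging protein of inflamed epithelia, was at 43.3, 47.6 and 44.4 CPM in shNC and at 18.8, 17.5 and 20.0 CPM in shMSLN (-1.27 ± 0.065 SE, adjusted p = 3.5e-09). CCL20, a chemokine, fell from 2.52, 3.10 and 3.90 CPM to 0.48, 0.84 and 0.90 CPM (-2.09 ± 0.27 SE, adjusted p = 3.2e-05). CLDN7, a tight junction claudin, fell to 77.9% of control (-0.36 ± 0.045 SE, adjusted p = 2.4e-05). TGFBR2 (0.01, adjusted p = 0.86) and PTGS2 (0.12, adjusted p = 0.33) did not pass the test. SPRR1A, SPRR1B, SPRR2A, SPRR3 and TGM3 were not tested, being at 1.31 TPM or less wherever they had a value. LCN2 and CCL20 are also targets of NF-kB and C/EBP factors, and binding by ELF3 or EHF was not measured.

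Of 15 genes known as targets of ETS1, ETS2 or the PEA3 class, 12 were tested, with a median log2 fold change of -0.09. Of these 12, 7 were called, 2 higher and 5 lower, against 34.6% of all tested genes. PLAU, the urokinase gene with a classic ETS and AP-1 enhancer, was at 52.9, 52.2 and 55.4 CPM in shNC and at 35.7, 34.9 and 33.7 CPM in shMSLN (-0.62 ± 0.051 SE, adjusted p = 3.6e-07). The adhesion gene ICAM1 fell to 62.0% of control (adjusted p = 4.5e-05) and MYC to 85.0% (adjusted p = 0.0070). SPP1, which encodes osteopontin, rose from 2.52, 2.88 and 4.12 CPM to 9.41, 8.36 and 8.64 CPM (1.47 ± 0.16 SE, adjusted p = 5.8e-06), and the membrane protease gene MMP14 to 116% of control (adjusted p = 3.8e-04). The direction was thus mixed, while neither ETS1 nor ETS2 passed the test.

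ELF1 was examined in the study beside CEBPB, RELA and IRF1 as a candidate factor of the MSLN gene. Of these 4, 3 were called, ELF1 higher and CEBPB and IRF1 lower, against 34.6% of all tested genes. CEBPB, a C/EBP factor of the acute phase and of mammary cells, was at 140, 131 and 136 CPM in shNC and at 94.3, 88.4 and 86.1 CPM in shMSLN, or 66.1% of control (-0.60 ± 0.046 SE, adjusted p = 1.6e-07). IRF1, an interferon-response factor, was at 66.2, 69.5 and 67.6 CPM in shNC and at 48.9, 45.6 and 46.2 CPM in shMSLN, or 69.3% of control (-0.53 ± 0.048 SE, adjusted p = 9.9e-07). RELA, a subunit of NF-kB, was at 141, 144 and 140 CPM against 130, 131 and 137 CPM, which did not overlap but did not pass the test (-0.10, adjusted p = 0.071). The groups differ by design in an shRNA against MSLN. What any of these factors does to the MSLN gene, or to its level in these samples, was not tested.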

How the data were processed

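RNA-Seq of 3 shNC and 3 shMSLN HCC1806/HM3 samples was examined. Groups and replicate numbers came from the sample titles. Poly(A) RNA was sequenced by BGI. The authors deposited one table with estimated counts, FPKM and TPM values per gene. The submitters' processing notes name GRCh38.p13; the aligner, quantifier and annotation are not given in the sources used here. The deposited shMSLN columns hold missing or error marks for some genes, which left 16573 genes measured in all 6 samples.

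After rounding, the estimated counts went into edgeR 4.0.16 (R 4.3.3; TMM scaling, filterByExpr, glmQLFit, glmQLFTest, no covariate), with Benjamini-Hochberg adjustment over 14552 genes. SE is the log2 fold change divided by the square root of F, and intervals cover 95%. On simulated counts with 200 genes changed by a fold of 2, 97% of these and 10 unchanged genes were called. The authors' TPM values were used for levels between genes and, as log2(TPM + 1) or log2(TPM + 0.1), in limma 3.58.1; the authors' FPKM values served to check the order of levels. Alternatives were RLE and upper-quartile scaling, other count filters, robust edgeR, limma-voom, DESeq2 1.42.0, missing marks as 0, a replicate block and left-out samples.

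The members and gene lists were chosen with earlier results of these data known. Named genes are all members, MSLN, the tested ETS genes, the candidate factors (1 is not reported here) and, in each of the partner, MAPK output and target lists, at most 5 called genes with the smallest adjusted p. Others were named after their values were seen. These were ELF3 and EHF targets and MAPK output genes that were not called, SRF, CIC, CREBBP, EP300 and untested ETS genes. The called epithelial and basal markers, LUM, DCN, UPK3B, VWF, CDH5, CD68 and the collagen genes were also named in this way. Start-site windows and coordinates are RefSeq's.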

Additional observations from a re-analysis of the deposited data

How the results depend on the processing

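Over 18 alternatives, the 10 members gave 180 log2 fold changes, of which 163 kept their direction and their side of the threshold, 7 lost a call, 3 gained one and 7 changed sign. All sign changes among members were in genes that were never called. With shMSLN replicate 1 as the only shMSLN sample, ELF2 was -0.024, ETV4 -0.028 and ETV5 -0.038. ETV5 was -0.0046 in limma-voom. Leaving out 1 sample at a time, ETV4 ran from -0.022 to 0.34 and ETV5 from -0.20 to 0.19. ELF3, EHF, ELK3 and MSLN were called in all 18, with MSLN between -2.67 and -2.58, and ELF1 in 17. With shMSLN replicate 1 alone, assumed to vary as the shNC samples do, 3 members, 3 other ETS genes, 1 partner, 3 MAPK output genes, 4 ETS1, ETS2 and PEA3 targets and 1797 genes in all were called; that fit has fewer samples. DESeq2 called 5 other ETS genes. Leaving out 1 sample at a time gave 4 to 6 members, 6 to 7 other ETS genes, 2 to 3 partners, 5 MAPK output genes, 3 ELF3 and EHF targets, 5 to 7 ETS1, ETS2 and PEA3 targets and 3695 to 5399 genes in all. Samples with the same number deviated together with correlations of 0.165, 0.0764 and 0.0718. Between samples with different numbers these ran from -0.105 to 0.0355. Whether the numbers pair the samples is not settled by these values, and the main fit took no pairing. In the replicate block fit 6 members and 5789 genes were called. Among the ETS genes, CEBPB, RELA and IRF1, those added were ETS2 and RELA. FPKM gave the same order of all 10 members. At this depth 1 CPM is under 20 reads per sample, which limits low genes such as ETV1, ETV5 and SPIB.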
